A study of Marchantia polymorpha with 6 samples.

Results

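On chromosome 3 of the liverwort Marchantia polymorpha, a row of neighbouring genes had lower transcript levels in thalli grown with arsenite. The stretch described here holds all 31 gene IDs from Mp3g18350 to Mp3g18650, of 19472 IDs in the count table. It was chosen around Mp3g18460, Mp3g18470, Mp3g18480, Mp3g18490 and Mp3g18520 because these 5 genes were lower with arsenite, so every difference between the groups inside the stretch is given as a description and supports nothing. RNA was sequenced from thalli, the flat plant body, of the genotype labelled Cam1, kept at 21 °C on half-strength Gamborg plates. To 3 samples 2.5 µM sodium arsenite, a salt of trivalent arsenic, was given in the plates, and 3 control samples grew without it. The labels do not say whether the 3 samples of a group came from separate cultures, so the spread between them may be technical. Where 3 values of a group are given, they stand for its replicates 1, 2 and 3 in that order.

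Gene IDs in this species are numbered along each chromosome, so genes with consecutive numbers are usually neighbours. In plants, neighbouring genes can be copies that arose by tandem duplication, members of a cluster for one pathway of specialised metabolism, or unrelated genes that lie in the same chromatin environment.

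Library totals ran from 26579324 to 31573867 reads with arsenite and from 26691102 to 47532310 reads in controls. Reads on 47 IDs of the female U chromosome numbered 46 to 83 with arsenite and 78 to 158 in controls, against 62663 to 76038 and 74742 to 113154 reads on 146 IDs of the male V chromosome. The Rubisco small subunit gene MpRBCS, a marker of green tissue, had 62.5 to 101 CPM with arsenite and 40.1 to 68.7 CPM in controls. CPM are reads per 1000000 reads on tested genes, after scaling between libraries, and are not corrected for gene length. The protamine gene MpPRM, a marker of sperm, had no read with arsenite and 1 read in the controls. In edgeR's quasi-likelihood test 566 of 13544 tested genes (4.18%) passed an adjusted p of 0.05, 290 lower and 276 higher.

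Of the 31 IDs in the stretch, 23 had enough reads to be tested and 8 did not. The 74.2% tested compares with 69.6% over the whole table. In the names table used here 29 of the 31 IDs had a counterpart, Mp3g18350 and Mp3g18360 being the others, and 9 carried a symbol. These were the SNARE protein gene MpSYP6A (Mp3g18380), the class III peroxidase genes MpPOD33 and MpPOD34 (Mp3g18410 and Mp3g18420), the microbial-type terpene synthase gene MpMTPSL2 (Mp3g18500), MpCPT5 and MpCPT4 (Mp3g18510 and Mp3g18560), the phenylalanine ammonia-lyase-like gene MpPAL-like1 (Mp3g18570), the trihelix transcription factor gene MpTRIHELIX32 (Mp3g18590) and the ABC transporter gene MpABCG25 (Mp3g18640). None of the 5 genes that chose the stretch had a symbol, nor had Mp3g18540, and no role is given for them. The names table holds Mp3g18470 before Mp3g18460, the 1 pair of neighbours in the other order, and 1 overlapping pair, Mp3g18570 with Mp3g18580.

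Among the 23 tested genes 6 were more than 2-fold lower with arsenite with every arsenite library below every control library, against 3.20% of all tested genes. These were the 5 genes that chose the stretch and Mp3g18540. The call of edgeR's test over the whole table was met by 5 genes lower, against 2.14% of all tested genes, and by 1 gene higher, against 2.04%. All arsenite libraries lay below all controls in 8 tested genes of the stretch and above them in 2, against 14.4% and 13.8% of all tested genes. Nothing is read from these shares, because the stretch was chosen on this contrast. The lowered genes lay between Mp3g18460 and Mp3g18540, a span of 9 IDs. The edge before it was abrupt, and the one after it was uneven and depended on the definition. Summed over the 6 genes, which weights those with more reads, CPM were 38.1, 51.9 and 59.8 with arsenite and 153, 206 and 194 in controls. Summed over the other 25 IDs of the stretch they were 406 ± 20.1 with arsenite and 399 ± 9.06 in controls (SD, n = 3 each).

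**Figure D1:**
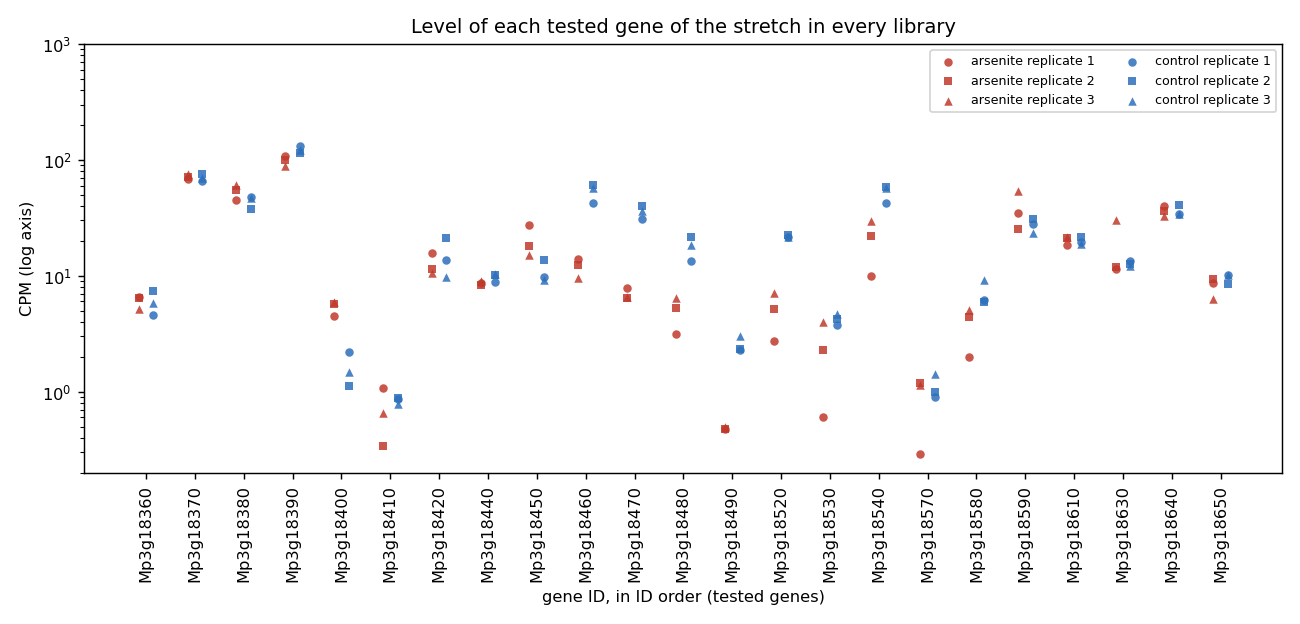
CPM on a log axis of the 23 tested genes of the stretch, in ID order, with 1 point per library. Arsenite libraries are red and drawn left of the control libraries, which are blue, and symbols mark replicates 1 to 3. The groups separate downward at Mp3g18460 to Mp3g18490, at Mp3g18520 and at Mp3g18540, and arsenite replicate 1 lies far below the other arsenite libraries at Mp3g18530 and Mp3g18570.

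The lowered genes began with a pair. Mp3g18460 had 13.9, 12.4 and 9.53 CPM with arsenite, against 42.4, 60.8 and 57.1 CPM in controls. Its log2 fold change, arsenite over control, was -2.16 ± 0.20 (SE), or 4.46-fold lower. All arsenite libraries lay well below the lowest control, and the arsenite library with the lowest level was replicate 3. The adjacent Mp3g18470 had 7.82, 6.43 and 6.57 CPM with arsenite, against 31.1, 39.8 and 36.5 CPM in controls. This was 5.15-fold lower, with a log2 fold change of -2.37 ± 0.15 (SE). Both genes were highest in replicate 1 among arsenite libraries and lowest in replicate 1 among controls. The 95% interval of the log2 fold change ran from -2.63 to -1.69 for Mp3g18460 and from -2.72 to -2.01 for Mp3g18470. These 2 genes met the call in the whole-table test in every one of 12 alternative analyses.

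Mp3g18480 had the other order among arsenite libraries. It stood at 3.16, 5.25 and 6.42 CPM with arsenite, against 13.3, 21.6 and 18.5 CPM in controls. The groups did not overlap, and the log2 fold change was -1.85 ± 0.30 (SE), or 3.60-fold lower. Here replicate 1 was the lowest arsenite library. The call ended in 4 of 12 alternatives, namely without arsenite replicate 2 and without each control in turn, and over all alternatives its log2 fold change ran from -2.07 to -1.59.

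Mp3g18490 rested on few reads, 15, 14 and 13 with arsenite and 111, 61 and 96 in controls. In CPM these were 0.479, 0.474 and 0.499 with arsenite and 2.28, 2.33 and 3.01 in controls. The arsenite libraries spanned 0.07 log2 units, less than in the other 5 lowered genes. With a log2 fold change of -2.38 ± 0.27 (SE), 5.21-fold lower, it met the call in all alternatives except the one without arsenite replicate 2.

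Beyond 2 IDs with almost no reads, the row went on with Mp3g18520. It had 2.74, 5.21 and 7.07 CPM with arsenite, against 21.7, 22.4 and 21.6 CPM in controls. The controls lay close together while arsenite replicate 3 was 1.35 log2 units above arsenite replicate 1. The log2 fold change was -2.13 ± 0.32 (SE), or 4.38-fold lower. Its call ended without arsenite replicate 2 and without each control in turn, and log2 fold changes ran from -2.45 to -1.81 over the alternatives.

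The end of the lowered row was less sharp and uneven. Mp3g18530 had 0.606, 2.30 and 3.96 CPM with arsenite, against 3.79, 4.20 and 4.64 CPM in controls. Only arsenite replicates 1 and 2 lay below all controls, and the 95% interval of its log2 fold change, -0.89 ± 0.57 (SE), ran from -2.22 to 0.45. Mp3g18540 had 9.99, 22.1 and 29.7 CPM with arsenite, against 42.3, 58.9 and 57.5 CPM in controls. The groups did not overlap, but the arsenite libraries spanned 1.57 log2 units. Its log2 fold change of -1.36 ± 0.37 (SE), 2.57-fold lower, did not meet the whole-table call, but met it with DESeq2 and without arsenite replicate 3.

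After Mp3g18550 and MpCPT4, which had 1 and 0 reads over the 6 libraries, came MpPAL-like1 (Mp3g18570). It had 0.287, 1.18 and 1.15 CPM with arsenite and 0.902, 0.994 and 1.41 CPM in controls. Arsenite replicate 1 alone, with 9 reads, lay below the controls, and the log2 fold change was -0.34 ± 0.52 (SE). Mp3g18580 had 2.01, 4.37 and 5.11 CPM with arsenite and 6.15, 5.89 and 9.22 CPM in controls, with no overlap between groups and a log2 fold change of -0.89 ± 0.37 (SE). Since these 2 genes overlap in the names table and the strand setting of the counting is not given, their reads cannot be told apart with certainty. The next gene, MpTRIHELIX32, had a log2 fold change of 0.46 ± 0.27 (SE), and its groups overlapped. The end of the row therefore depends on the definition. With 2-fold as the limit it is Mp3g18540, with the whole-table call it is Mp3g18520, and with a log2 limit of -0.5 it is Mp3g18580. Leaving out arsenite replicate 3 or control replicate 2 also moved the 2-fold edge to Mp3g18580.

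**Figure D2:**
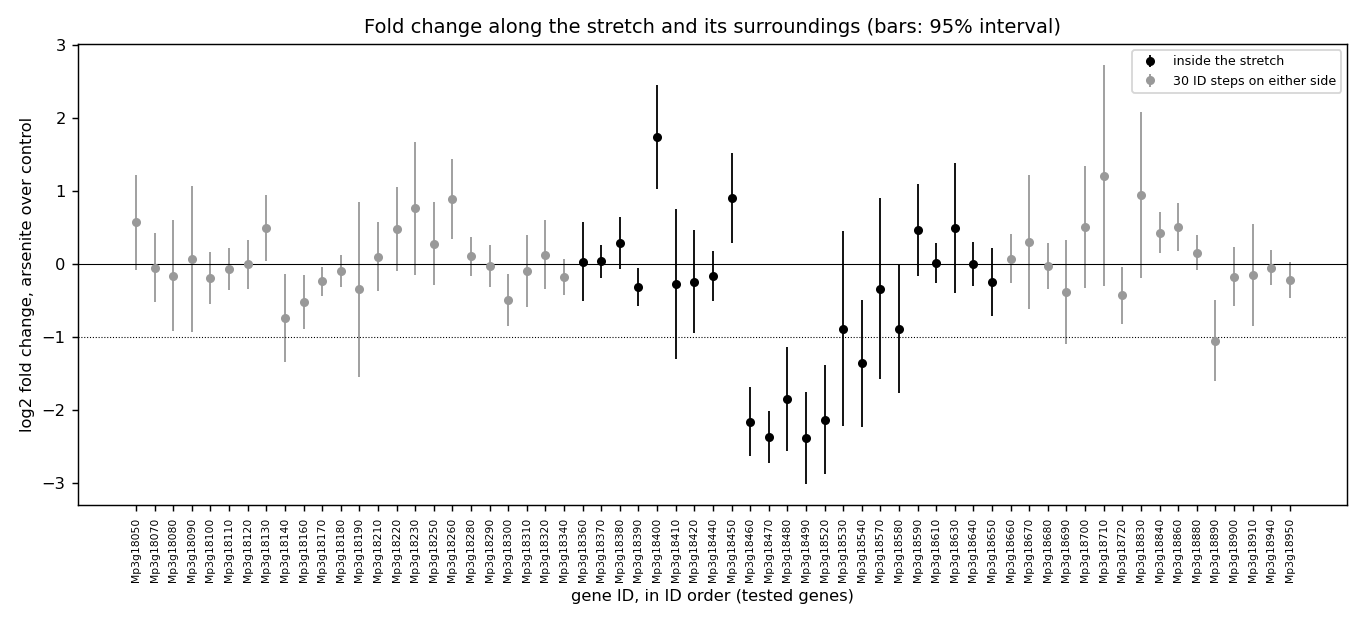
Log2 fold change, arsenite over control, of each tested gene from Mp3g18050 to Mp3g18950 in ID order, with 95% intervals as bars. Black points are the 23 tested genes of the stretch, grey points the 40 tested genes within 30 ID steps on either side, and the dotted line marks -1. The fold change drops between Mp3g18450 (0.91) and Mp3g18460 (-2.16) and returns unevenly over Mp3g18530 to Mp3g18590.

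In ID order the front edge was the same under every alternative tried. The names table holds Mp3g18470 before Mp3g18460, and no alternative used that order. Mp3g18450, the gene next to Mp3g18460 in ID order, had 27.3, 18.2 and 15.1 CPM with arsenite, against 9.74, 13.6 and 9.13 CPM in controls. Every arsenite library lay above every control, and the log2 fold change was 0.91 ± 0.26 (SE). It met the whole-table call only with DESeq2 among the 12 alternatives. So the sign changed between a gene and its neighbour in ID order at this edge. A further gene on this side, Mp3g18400, had 4.53, 5.72 and 5.92 CPM with arsenite and 2.21, 1.11 and 1.47 CPM in controls. Its log2 fold change was 1.74 ± 0.30 (SE), 3.33-fold higher, and it was the 1 gene of the stretch called higher. That call ended without arsenite replicate 2 or 3 and without each control in turn.

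The remaining tested genes before the row had log2 fold changes between -0.31 and 0.28. For MpSYP6A the value was 0.28 ± 0.15 (SE). The peroxidase genes MpPOD33 and MpPOD34 stood at 0.692 ± 0.375 and 12.6 ± 2.84 CPM with arsenite and at 0.841 ± 0.0504 and 14.9 ± 5.80 CPM in controls (SD, n = 3 each), and their groups overlapped. Mp3g18390 lay lower in all arsenite libraries but by little, with 98.6 ± 9.21 CPM with arsenite and 123 ± 8.88 CPM in controls, a log2 fold change of -0.31 ± 0.11 (SE). After the row, Mp3g18610 and MpABCG25 differed least, with log2 fold changes of 0.02 ± 0.12 and -0.003 ± 0.127 (SE). Mp3g18630 had 11.3, 11.9 and 30.5 CPM with arsenite and 13.4, 12.5 and 12.2 CPM in controls. Arsenite replicate 3 alone stood above the rest.

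The IDs at the ends of the stretch were not themselves lowered. Just inside, Mp3g18350 had 1, 5 and 14 reads with arsenite and 8, 0 and 2 reads in controls, and Mp3g18650 had a log2 fold change of -0.24 ± 0.20 (SE). Just outside, Mp3g18340 and Mp3g18660 had log2 fold changes of -0.18 ± 0.10 and 0.07 ± 0.14 (SE). In the 30 ID steps before the stretch 24 genes were tested, with log2 fold changes from -0.74 to 0.89, and in the 30 steps after it 16 were tested, from -1.05 to 1.21. Neither side held a called gene. Mp3g18890 was the 1 gene there over 2-fold lower without overlap, at 538 CPM with arsenite and 1114 CPM in controls on average, and it was called with DESeq2, when scaled by totals alone and with no low-count filter.

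Among the 8 IDs too low to test, MpMTPSL2 (Mp3g18500), inside the lowered row, had its few reads with arsenite only. It had 5, 5 and 6 reads with arsenite and 0 reads in each control. Set against a floor of 3 reads per control library, its mean level with arsenite was 2.07-fold higher. The floor covers counting error in the controls only, not that of the 16 arsenite reads, and the gene was not tested. Its neighbour MpCPT5 had 1, 2 and 0 reads with arsenite and 0, 0 and 1 reads in controls. Mp3g18620 had at most 4 reads in a library, and Mp3g18430, MpCPT4 and Mp3g18600 had none in any, which allows up to 3 reads in each library, or 0.0615 to 0.115 CPM. Inside the lowered row thus lay the near-silent MpMTPSL2 and MpCPT5, which were not tested and cannot be said to break or continue it. The tested gene inside it that was not over 2-fold lower in the main fit was Mp3g18530. Its log2 fold change was below -1 with voom (-1.26), with the replicate number as a block (-1.17) and without arsenite replicate 3 (-1.53).

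The deviations of each library from its group mean do not contain the difference between groups that chose the genes, and their order was not the same in all lowered genes. Mp3g18480, Mp3g18520, Mp3g18530, Mp3g18540, MpPAL-like1 and Mp3g18580 were each lowest in replicate 1 among arsenite libraries, with replicate 3 between 1.01 and 2.59 log2 units above it. This grouping of 6 genes was made after the values were seen and is not tested. Relative to the control mean, arsenite replicate 1 stood at -2.67 log2 units for Mp3g18530 and at -1.71 for MpPAL-like1, while arsenite replicate 3 stood at -0.08 and 0.09. So the lower end of the row reached further in arsenite replicate 1 than in the other arsenite libraries. Mp3g18460 and Mp3g18470 differed from this pattern, with arsenite replicate 3 at 0.54 and 0.25 log2 units below arsenite replicate 1. A difference of more than 1 log2 unit, arsenite replicate 3 above arsenite replicate 1, was present in 6 of the 9 tested genes from Mp3g18460 to Mp3g18580, in 1 of the 14 other tested genes of the stretch and in 7.33% of all tested genes. That window ends at the last of the 6 genes grouped after their values were seen. Its higher share follows in part from that choice and was not tested.

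**Figure D3:**
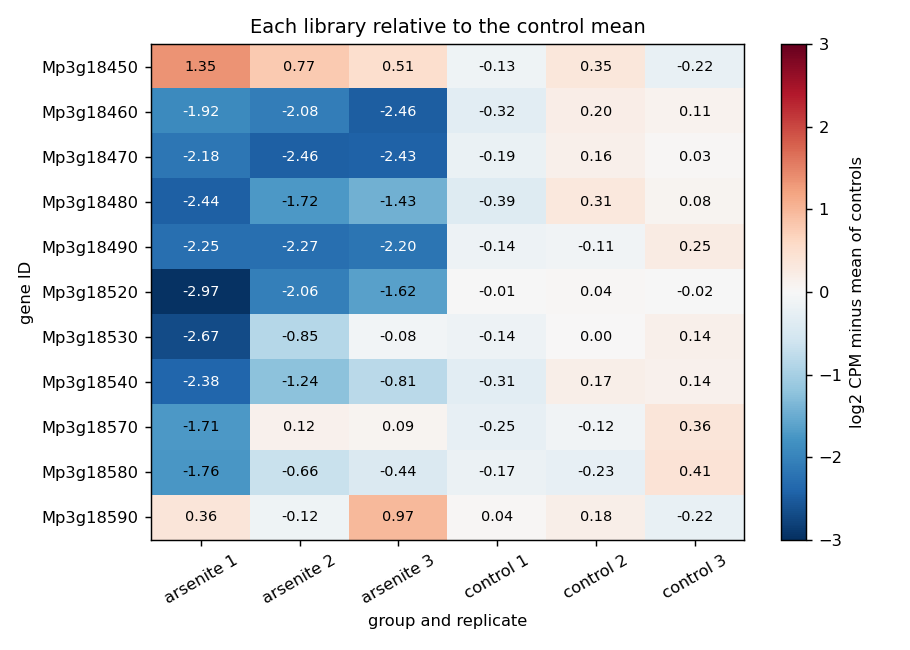
Log2 CPM of each library minus the mean of the 3 controls, for the 11 tested genes from Mp3g18450 to Mp3g18590, with genes in rows, arsenite replicates 1 to 3 in the left columns and control replicates 1 to 3 in the right columns. Blue is below and red above the control mean. Mp3g18460 and Mp3g18470 are low in all arsenite libraries, from -2.46 to -1.92, whereas Mp3g18530 to Mp3g18580 are lowest in arsenite replicate 1.

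As a description over 6 libraries, in which only 4 degrees of freedom remain once group means are removed, these deviations were correlated between genes. For the 15 pairs among the 6 genes over 2-fold lower Pearson's r ran from -0.63 to 0.95, with a median of 0.16. The adjacent Mp3g18460 and Mp3g18470 gave 0.83, and Mp3g18460 with Mp3g18520 gave -0.63. Mp3g18490, with the fewest reads of the 6, had r between 0.08 and 0.24 with the other 5. Over the 22 neighbouring pairs of tested genes in the stretch the median was 0.26, against 0.11 over the 13472 neighbouring pairs of tested genes in the whole table. Over all 253 pairs in the stretch, at any distance, the median was 0.07. Over the 780 pairs of genes in the 30 steps on either side it was -0.03. These include pairs across the stretch, which lie further apart than pairs inside it. An r over 0.9 was reached by 4 of the 22 neighbouring pairs in the stretch (18.2%), the consecutive pairs from Mp3g18520 to Mp3g18580, and by 5.57% of those in the whole table. Among the 4 is MpPAL-like1 with Mp3g18580 (0.97), which overlap in the names table, so their reads may be shared. The genes of all 4 pairs were lowest in replicate 1 among arsenite libraries. How far these values rest on that library was not tested. All points share the same libraries and scaling.

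**Figure D4:**
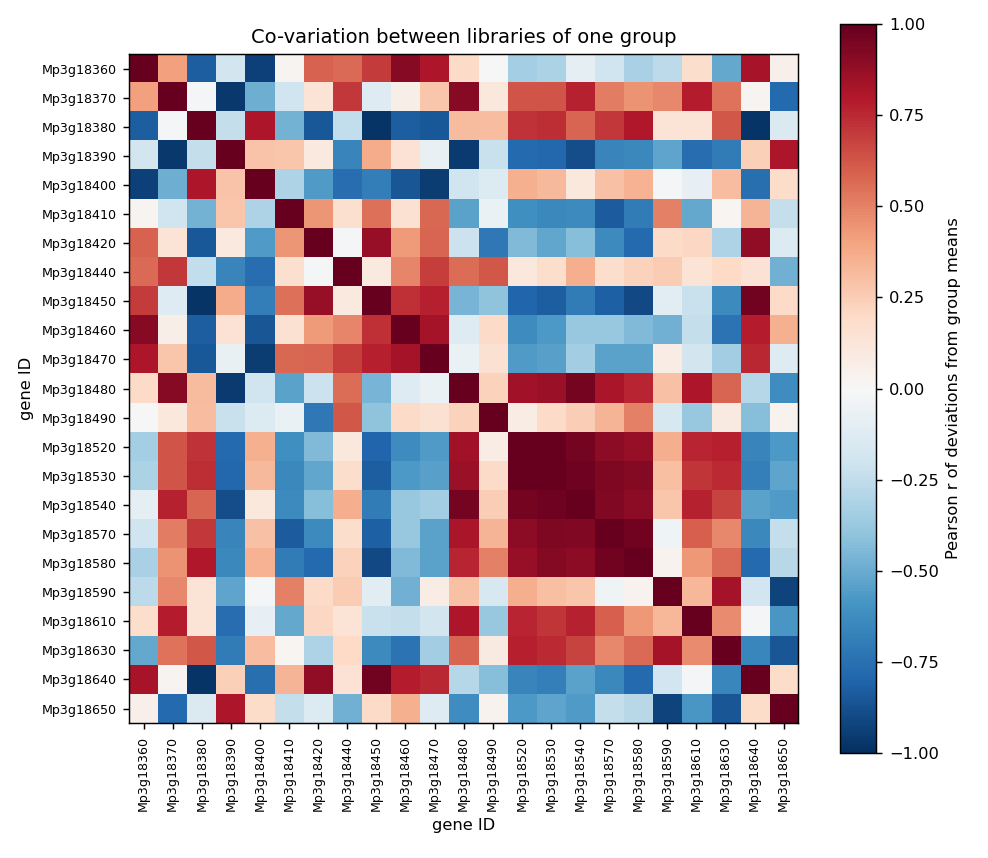
Pearson's r, over 6 libraries, between the deviations of log2 CPM from the group means for each pair of the 23 tested genes of the stretch, with genes in ID order on both axes. Red is positive and blue negative. Mp3g18520, Mp3g18530, Mp3g18540, MpPAL-like1 (Mp3g18570) and Mp3g18580 form a red square that also takes in Mp3g18480. These are the genes grouped above by their order among arsenite libraries, so the square restates that order in part. The deviations of the controls enter it too.

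Markers of oil body cells, scattered cells of the thallus that store terpenoids and other specialised metabolites, had lower average levels with arsenite too. The 3 markers with a symbol in the names table summed to 33.0 to 55.0 CPM with arsenite and 53.6 to 76.0 CPM in controls, so the sums overlapped. Most of each sum came from MpC1HDZ, whose groups overlapped. Those of MpERF13 did not, at 2.33 to 3.66 CPM with arsenite and 4.82 to 7.65 CPM in controls. MpSYP12B, a SNARE of the oil body membrane, had 1.34, 2.71 and 2.15 CPM with arsenite, against 5.72, 4.85 and 5.87 CPM in controls (log2 fold change -1.41 ± 0.29 (SE), adjusted p = 0.0462, edgeR). Its call ended with any one library left out, and its adjusted p ran from 0.000298 to 0.146 over 12 alternatives. The transcription factor genes MpERF13 and MpC1HDZ had log2 fold changes of -1.08 ± 0.28 and -0.56 ± 0.25 (SE) and did not pass over all genes (adjusted p = 0.0805 and 0.253, edgeR). All 3 were lowest in replicate 1 among arsenite libraries, as were 36.0% of all tested genes. Of the lowered genes, Mp3g18480, Mp3g18520 and Mp3g18540 were lowest there too. Mp3g18490 was lowest in replicate 2, and Mp3g18460 and Mp3g18470 were highest in replicate 1. The part of oil body cells in the levels of the lowered row was not tested. In whole thalli fewer cells of a type and less RNA per cell cannot be told apart. Of the 5 tested markers of gemma cups, air pores and antheridia 0 were called, which says little beside 4.18% of all tested genes.

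Rows of lowered neighbours were present elsewhere too. In ID order, tested genes with a log2 fold change below -1, 500 of the 13482 with chromosome IDs (3.71%), formed 402 uninterrupted runs, of which 342 were single genes, 32 were pairs and 22 were triplets. The run from Mp3g18460 to Mp3g18520 counts 5 tested genes. One other run had 5, from Mp2g24760 to Mp2g24810, and 1 had 6, from Mp3g24130 to Mp3g24210 on the same chromosome. The stretch was chosen for its run, so its place among them is a description.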

How the data were processed

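The authors deposited whole-number read counts per gene, 1 headerless table per library, made with htseq-count on Galaxy per the names of the deposited tables. RNA was extracted with a Qiagen plant kit and sequenced as polyA RNA, per the labels' protocols. For the aligner, build, annotation, strand setting and multiply placed reads, the settings are not given in the sources used. The members, lists and comparisons were chosen with earlier results of these data known.

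Counts were tested with edgeR 4.0.16 in R 4.3.3 (quasi-likelihood test, TMM scaling, default low-count filter by group, all 6 libraries, no covariate), with Benjamini-Hochberg adjustment over 13544 genes at 0.05. Depth was 26579324 to 47532310 reads per library, and replicates differed by more than sampling noise (chi-square per degree of freedom at least 41.2). CPM used TMM-scaled totals. Log2 CPM for deviations had a prior count of 2. On simulated data the procedure called 42.9% of 2-fold and 87.1% of 4-fold changes, and 5.11% of its calls were false. A change near 2-fold can thus easily miss the call.

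Gene symbols were taken from a names table for assembly MpTak2_v7.1, matched by ID number (17671 of 19472 IDs). Since the build of the counts is not known, no coordinates are given. It holds gene spans only, so levels per transcript length were not computed and levels of different genes are not compared. Whether neighbours share sequence was not checked. Named genes were the 5 that chose the stretch, those called, those over 2-fold changed at 1 CPM or more, and those next to an edge. Mp3g18340, Mp3g18350, Mp3g18390, Mp3g18530, Mp3g18580, Mp3g18610, Mp3g18630, Mp3g18650, Mp3g18660, Mp3g18890 and the genes with symbols were added after their values were seen. The marker lists also held rhizoid genes, of which 0 had a matching symbol. DESeq2 1.42.0 and limma 3.58.1 (voom) gave alternatives.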

Additional observations from a re-analysis of the deposited data

How the results depend on the processing

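The count of genes called over the whole table, 566, was 1598 with DESeq2 and 364 with the replicate number as a block, and ran from 39 (without arsenite replicate 2) to 461 (without arsenite replicate 3) with a library left out. Stretch genes called lower, 5 in all libraries, ran from 2 (without arsenite replicate 2) to 6 (without arsenite replicate 3), with 3 without each control in turn. They numbered 6 with DESeq2 and with the block, under which Mp3g18540 gained and Mp3g18400 and MpSYP12B lost their calls. The count of stretch genes with a log2 fold change below -1, 6 in the main fit, was 8 without arsenite replicate 3. It was 7 with voom, with the block and without control replicate 2, and 6 otherwise. The correlations of deviations between libraries of the same number were 0.01, -0.11 and 0.19, and arsenite replicate 1 went best with control replicate 2 (0.41). Because deviations cancel within each group of 3, these correlations cannot decide whether replicate numbers pair the libraries. Of 29 genes rerun under 12 alternatives, the 23 tested in the stretch among them, 22 kept their sign throughout. The sign changed at least once for 7 that were not called: Mp3g18360 (-0.11 to 0.22), MpPOD33 (-0.75 to 0.05), MpPOD34 (-0.47 to 0.10), MpPAL-like1 (-0.63 to 0.11), Mp3g18610 (-0.03 to 0.10), Mp3g18630 (-0.12 to 0.76) and MpABCG25 (-0.06 to 0.08, all log2). The span of the lowered row stayed between 7 and 13 IDs, always from Mp3g18460 in ID order. The median correlation of deviations, 0.07, ran from 0.04 to 0.12 with a library left out. Depth limits MpPOD33, MpPAL-like1, Mp3g18490 and the 8 untested IDs most.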
